A study of Homo sapiens with 6 samples.

Results

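The anaphase-promoting complex or cyclosome (APC/C), its activators and the securin-separase pair were examined by RNA-seq in HCT116 cells, a human colorectal carcinoma line, with or without knockdown of GDPD5. The members were the rows of the deposited count table whose Ensembl identifiers carry 10 gene symbols: CDC20, FZR1, UBE2C, UBE2S, FBXO5, ANAPC1, ANAPC7, CDC27, PTTG1 and ESPL1. All 10 were found among the 79302 genes of the table, and all 10 passed the filter on low counts that left 16755 genes for testing. The other 11 subunits of the complex were read from the same table.

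The 3 libraries labelled shCtrl (HCT116 with a control shRNA, genotype "control") were compared with 3 labelled shGDPD5 (HCT116 with an shRNA against GDPD5, genotype "KD"). Both groups were a radioresistant derivative of the line, sampled 6 h after a dose of 4 Gy, so every library carries the selection and the irradiation, and no unirradiated or parental library was analysed here. The sample labels name the cells HCT116 only. The sources used here give neither the shRNA sequence behind these libraries nor whether replicates are independent cultures. The p-values then measure only the spread between these libraries, which may be technical.

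The libraries held between 16715447 and 18510670 counts. GDPD5, the targeted gene, was read at 8.33 to 11.6 CPM (read counts scaled to library size) in shCtrl and 5.19 to 5.55 CPM in shGDPD5, without overlap (log2 fold change −0.88, SE 0.14, edgeR adjusted p = 0.000117). Of 8 epithelial markers 7 were tested and all 7 fell, by 0.16 to 0.83 on the log2 scale, where 30.1% of all tested genes fell. EPCAM, CDH1, KRT8, KRT18 and KRT19 were well detected and VIL1 was at 0 to 10 counts. For KRT8 the groups overlapped, with shCtrl 1 at 1069 CPM below shGDPD5 1 at 1074 CPM and shGDPD5 3 at 1075 CPM. The summed epithelial level ran from 3333 to 3806 CPM in shCtrl and from 2668 to 2777 CPM in shGDPD5. Of 7 markers of leukocytes, endothelium and fibroblasts, CD3E, COL1A2 and DCN were at 0 in every library, PTPRC and PECAM1 had at most 2 counts, and COL1A1 and ACTA2 passed no test, with summed levels of 25.6 to 27.6 CPM against 26.9 to 28.9 CPM. The part of these lower epithelial levels in the results below was not tested. Library shCtrl 1 stood somewhat apart from the other 2 control libraries: the chi-square of their counts per degree of freedom was 6.14 and 7.13, against 1.66 to 3.35 for the other pairs of replicates.

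The APC/C is a ubiquitin ligase that drives exit from mitosis. CDC20 activates it in early mitosis and FZR1 (also called Cdh1, unrelated to the cadherin CDH1) from late mitosis through G1. UBE2C attaches the first ubiquitin to a substrate, UBE2S lengthens the chain, and FBXO5 (EMI1) blocks the complex during S and G2 phase. Among its substrates is securin, the product of PTTG1, which holds the protease separase (ESPL1) inactive until anaphase, when separase cleaves cohesin and sister chromatids part. Transcripts of most of these genes peak in G2 and mitosis, and their promoters often carry a cell cycle homology region (CHR) near the start site, together with CCAAT boxes bound by NF-Y.

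Upon knockdown of GDPD5 all 10 members rose, from 0.17 (CDC27) to 1.79 (ESPL1) on the log2 scale, by edgeR's quasi-likelihood test with Benjamini-Hochberg adjustment over all tested genes at an adjusted p under 0.05. Of these calls, that of CDC27 was lost on leaving out any of 4 of the 6 libraries. That of ANAPC1 was lost when rows that share its sequence were added (edgeR adjusted p = 0.389). In each of the 10, every shGDPD5 library lay above every shCtrl library. The background was wide: 59.7% of all tested genes changed by this rule, 29.7% rising and 30.1% falling, and in 32.6% every shGDPD5 library lay above every shCtrl library. The median log2 fold change was 0.67 over the members and 0.01 over all tested genes. The members were chosen with earlier results of these data known, so this contrast is a description and not a test. The study's methods name a pair of size cuts beside an unadjusted p under 0.05, applied here to the edgeR fit. With a change of at least 1 on the log2 scale, 1 member (ESPL1) rose, where 5.38% of all tested genes did and 6.6% fell. With a fold over 1.5 or under 0.5, added after seeing the data, 5 members rose (CDC20, UBE2C, FBXO5, PTTG1 and ESPL1), where 13.6% of all tested genes did and 6.6% fell. Summed over the members, the level ran from 703.2 to 736.7 CPM in shCtrl and from 1040 to 1064 CPM in shGDPD5. In bulk RNA a larger share of cells in the phases that express these genes and more RNA per cell cannot be told apart.

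**Figure D1:**
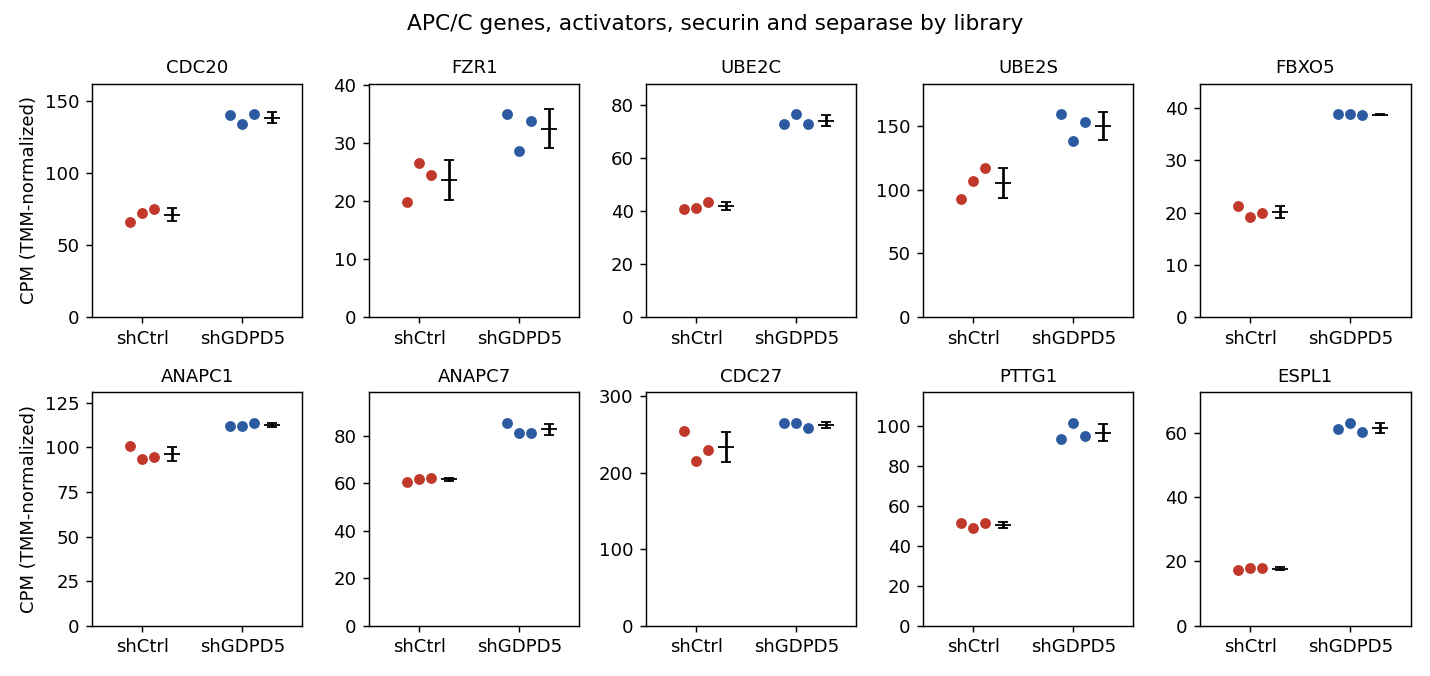
Level of each of the 10 members in TMM-normalized CPM on a linear axis from 0, with 1 panel a gene. Points are libraries (red shCtrl, blue shGDPD5) and the black marks beside them are the mean and SD (n = 3). ESPL1 shows the widest gap relative to its level, 17.2 to 18.1 CPM against 60.2 to 63.1 CPM, and CDC27 the narrowest, 215.9 to 254.1 CPM against 258.1 to 265.3 CPM.

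The promoter sequences of 9 of the 10 members were found in RefSeq (assembly GRCh38.p14), as windows from 250 bases before to 50 bases after an annotated start. UBE2C was not matched. The 6 windows printed here were chosen to set 5 members whose window holds both a CHR and a CCAAT box beside UBE2S, which holds a CCAAT box alone. Each is written 5′ to 3′ on the strand of the gene, with motif matches on either strand in capitals. The CHR was searched for as the hexamer TTTGAA, which appears reverse-complemented where it lies on the opposite strand, and as its common variant form TTTAAA, a palindrome. The CCAAT box was searched for as CCAAT, which shows here as ATTGG when it lies on the opposite strand. They lie at chr1:43358731-43359030 (+) for CDC20, chr5:160421605-160421904 (+) for PTTG1, chr6:152982992-152983291 (−) for FBXO5, chr12:53268049-53268348 (+) for ESPL1, chr17:47189246-47189545 (−) for CDC27 and chr19:55407739-55408038 (−) for UBE2S. PTTG1 and FBXO5 have more than 1 annotated start, and the window shown holds both motifs. The other FBXO5 window holds neither motif, and the other PTTG1 window overlaps the one shown and holds the same sites.
CDC20: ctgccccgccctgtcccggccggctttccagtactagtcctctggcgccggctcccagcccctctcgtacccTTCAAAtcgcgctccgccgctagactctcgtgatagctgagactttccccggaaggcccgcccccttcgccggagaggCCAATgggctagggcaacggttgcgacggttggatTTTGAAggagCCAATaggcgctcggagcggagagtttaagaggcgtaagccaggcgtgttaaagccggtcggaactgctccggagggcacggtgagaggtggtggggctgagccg
PTTG1: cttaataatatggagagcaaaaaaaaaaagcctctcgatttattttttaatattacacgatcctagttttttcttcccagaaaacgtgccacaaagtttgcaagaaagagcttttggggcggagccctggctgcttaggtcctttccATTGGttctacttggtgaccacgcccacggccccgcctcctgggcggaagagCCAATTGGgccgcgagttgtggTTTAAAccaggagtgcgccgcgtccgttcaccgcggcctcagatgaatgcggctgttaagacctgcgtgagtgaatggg
FBXO5: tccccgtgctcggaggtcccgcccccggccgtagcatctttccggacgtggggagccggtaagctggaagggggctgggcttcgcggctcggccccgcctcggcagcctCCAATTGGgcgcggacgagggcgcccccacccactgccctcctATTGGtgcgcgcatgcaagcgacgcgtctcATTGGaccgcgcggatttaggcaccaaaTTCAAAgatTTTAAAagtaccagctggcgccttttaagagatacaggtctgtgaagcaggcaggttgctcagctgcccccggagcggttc
ESPL1: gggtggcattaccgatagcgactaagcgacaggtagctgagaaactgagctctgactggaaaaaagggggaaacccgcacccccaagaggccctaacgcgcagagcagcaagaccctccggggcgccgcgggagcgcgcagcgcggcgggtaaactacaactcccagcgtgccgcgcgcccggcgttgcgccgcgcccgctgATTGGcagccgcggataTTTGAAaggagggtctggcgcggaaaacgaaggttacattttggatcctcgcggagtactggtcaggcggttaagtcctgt
CDC27: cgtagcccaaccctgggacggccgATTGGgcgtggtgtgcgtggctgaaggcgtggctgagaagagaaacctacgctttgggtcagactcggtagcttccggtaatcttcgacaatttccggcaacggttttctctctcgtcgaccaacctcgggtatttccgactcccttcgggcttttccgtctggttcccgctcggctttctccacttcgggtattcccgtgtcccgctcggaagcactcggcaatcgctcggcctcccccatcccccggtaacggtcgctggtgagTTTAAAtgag
UBE2S: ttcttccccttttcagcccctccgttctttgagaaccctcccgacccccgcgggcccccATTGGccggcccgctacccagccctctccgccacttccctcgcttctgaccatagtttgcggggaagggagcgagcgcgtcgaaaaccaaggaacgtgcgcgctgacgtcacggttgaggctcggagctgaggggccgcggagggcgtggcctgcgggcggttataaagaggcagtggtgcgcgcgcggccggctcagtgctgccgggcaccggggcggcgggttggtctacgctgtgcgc

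A CHR lay within the windows of 8 of the 9 matched members, a CCAAT box in 6 and both in 5 (CDC20, FBXO5, CDC27, PTTG1 and ESPL1). Counted by window, since a gene may have several starts, a CHR lay in 9 of 12, a CCAAT box in 7 and both in 6. The same PTTG1 sites enter these counts from both of its windows. Over 35116 windows of the same length, 24.0% held a CHR, 34.6% a CCAAT box and 9.3% both. Among the 11 other subunits, all matched, a CHR lay in a window of 1 (ANAPC10), a CCAAT box in 5 and both in 0. By window these were 1, 8 and 0 of 22. In CDC20 the CHR on the gene's own strand began at −65, counted from the start site, between CCAAT boxes at −100 and −55. The ESPL1 CHR lay at −31 with a CCAAT box at −48. In the window shown, the PTTG1 CHR lay at −29 with CCAAT boxes at −51 and −48 that overlap each other. From the other PTTG1 start these lay at −84, −106 and −103. The FBXO5 CHRs lay at −40 and −31 in the window shown, with 4 CCAAT boxes upstream, 2 of them overlapping. CDC27 differed in layout from these: its CHR lay downstream of the start, at 41, and its CCAAT box at −226. Of the members with a CHR but no CCAAT box, ANAPC1 also held it downstream, at 38. FZR1 held it at −226 and ANAPC7 at −236, far from the start. An E2F motif (TTTCCCGC, TTTGGCGC or TTTCGCGC), held by 2.7% of windows, was found in none of the member windows and in those of CDC16 and CDC23. These matches describe letters in a window, and no binding was measured.

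Both activators rose, CDC20 by 0.96 and FZR1 by 0.46 on the log2 scale. CDC20 (ENSG00000117399, chr1:43358955-43363203, plus strand, in GENCODE release 29 on GRCh38) was read at 65.9, 71.8 and 75.1 CPM in shCtrl and 140.3, 134.1 and 140.8 CPM in shGDPD5. The lowest knockdown library lay well above the highest control library. The change was 0.96 on the log2 scale (SE 0.06, edgeR adjusted p = 2.23e-08), or 1.95-fold in the means, on 1132 to 2512 counts per library.

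FZR1 (ENSG00000105325, chr19:3506273-3538330, plus strand), the activator of late mitosis and G1, was at 19.8, 26.5 and 24.4 CPM in shCtrl and 34.95, 28.6 and 33.7 CPM in shGDPD5. The groups did not overlap, but shCtrl 2 and shGDPD5 2 lay close together, and the standard error was the largest of any member. The change was 0.46 (SE 0.10, edgeR adjusted p = 0.00227). It ran from 0.34 without shCtrl 1 to 0.55 without shCtrl 2. FZR1 shares 70 exonic bases with MFSD12 on the opposite strand, and whether the counting used strand is not given in the sources used here.

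Set against each other within a library, CDC20 exceeded FZR1 by 1.73, 1.43 and 1.62 on the log2 scale in shCtrl and by 2.00, 2.22 and 2.06 in shGDPD5. The ratio was higher in all 3 knockdown libraries, by 0.50 on the log2 scale. The exact two-sided permutation test over libraries gave p = 0.1, which is the smallest p that 3 against 3 allows. Per kilobase of exon, CDC20 was 8.65 ± 0.893 times FZR1 in shCtrl and 12.2 ± 0.998 times in shGDPD5 (SD, n = 3).

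**Figure D2:**
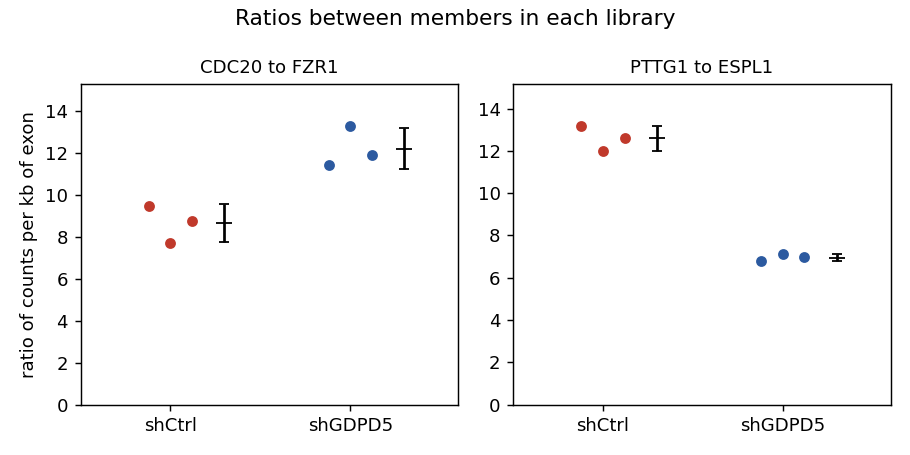
Ratio of CDC20 to FZR1 (left) and of PTTG1 to ESPL1 (right) in each library, from counts per kilobase of exon on a linear axis from 0. Points are libraries (red shCtrl, blue shGDPD5) with the mean and SD beside them (n = 3). The first ratio goes from 8.65 to 12.2 and the second from 12.6 to 6.96, with no overlap between groups in either.

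Both ubiquitin-conjugating enzymes of the complex rose. UBE2C (ENSG00000175063, chr20:45812576-45816957, plus strand), which starts the chain, was at 40.8, 41.1 and 43.7 CPM in shCtrl and 73.1, 76.8 and 73.0 CPM in shGDPD5. Libraries of a group lay close together and the groups far apart. The change was 0.83 (SE 0.05, edgeR adjusted p = 6.75e-08).

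UBE2S (ENSG00000108106, chr19:55399745-55407777, minus strand), which extends the chain, was at 92.7, 106.5 and 116.8 CPM in shCtrl and 159.5, 138.3 and 152.9 CPM in shGDPD5. The control libraries were more spread than those of UBE2C, with shCtrl 1 lowest, yet the groups did not overlap. The change was 0.51 (SE 0.08, edgeR adjusted p = 0.000108), and 0.42 without shCtrl 1. The difference between the changes of the 2 enzymes was not tested.

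The inhibitor FBXO5 (ENSG00000112029, chr6:152970519-152983579, minus strand) was at 21.3, 19.1 and 19.9 CPM in shCtrl and 38.8, 38.9 and 38.6 CPM in shGDPD5. The knockdown libraries were nearly equal and all stood above the controls. The change was 0.95 (SE 0.06, edgeR adjusted p = 7.79e-08), on 339 to 728 counts per library. FBXO5 shares 157 exonic bases with the opposite-strand gene AL080276.2.

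Transcripts of the proteins around FBXO5 moved unevenly. Of 7 listed, its germline relative FBXO43 had 5 to 9 counts and was not tested. SKP1, CUL1 and RBX1, shared parts of the SCF ligase that marks EMI1 for destruction, rose by 0.50, 0.37 and 0.39. EVI5, which protects EMI1, fell by 0.41 on the log2 scale (SE 0.07, edgeR adjusted p = 0.000313). Transcripts of the F-box proteins that recognize EMI1 did not pass the test, with log2 fold changes of −0.01 for BTRC and −0.06 for FBXW11. The median over the 6 tested genes was 0.18.

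The 3 subunits among the members rose by 0.17 to 0.42 on the log2 scale, with a limit for ANAPC1 and CDC27 given beside their values. ANAPC7 (ENSG00000196510, chr12:110372900-110403730, minus strand), a TPR subunit of the arc lamp that holds the activators, was at 60.7, 61.8 and 62.2 CPM in shCtrl and 85.4, 81.1 and 81.2 CPM in shGDPD5. The groups were tight and did not overlap. The change was 0.42 (SE 0.05, edgeR adjusted p = 1.19e-05). A same-strand row, AC144548.1, shares 683 exonic bases with ANAPC7 and had 103.5 counts over all 6 libraries.

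CDC27 (ENSG00000004897, chr17:47117703-47189422, minus strand), the TPR subunit that docks CDC20 and FZR1, was at 254.1, 215.9 and 230.3 CPM in shCtrl and 265.3, 265.2 and 258.1 CPM in shGDPD5. The highest control library, shCtrl 1, lay just under the lowest knockdown library. The change was 0.17 (SE 0.06, edgeR adjusted p = 0.0198). It no longer passed the test without shCtrl 2 (0.11, edgeR adjusted p = 0.119), shCtrl 3 (0.16, edgeR adjusted p = 0.0615), shGDPD5 1 (0.16, edgeR adjusted p = 0.0698) or shGDPD5 2 (0.16, edgeR adjusted p = 0.0654), and was 0.23 without shCtrl 1. CDC27 shares 126 exonic bases with the opposite-strand row AC002558.2.

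ANAPC1 (ENSG00000153107, chr2:111611639-111884690, minus strand), the largest scaffold subunit, was at 100.6, 93.4 and 94.8 CPM in shCtrl and 112.0, 112.0 and 113.8 CPM in shGDPD5. The groups did not overlap, and the change was 0.23 (SE 0.05, edgeR adjusted p = 0.00147). This gene shares sequence with other rows: 10 of them, called copies here, share at least 100 runs of 50 bases with its transcripts. The share of a copy's own runs ran from 17.26% (AC017002.6) to 80.99% (AC092651.1). AC017002.6 overlaps ANAPC1 itself on the same strand, by 327 exonic bases. The most abundant of them, AC125232.2 (ENSG00000285793), went the other way, from 23.7, 22.6 and 25.0 CPM in shCtrl to 10.7, 8.43 and 7.78 CPM in shGDPD5. It fell by 1.41 on the log2 scale (SE 0.11, edgeR adjusted p = 2.83e-07), and 47.65% of its own runs of 50 bases also occur in ANAPC1. Of the other copies that were tested, AC133644.3 rose by 0.65 and AC083899.1 did not pass the test (0.41, edgeR adjusted p = 0.0793).

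With the 10 copies added to ANAPC1, a choice made after seeing the data, the libraries read 129.7, 121.9 and 124.8 CPM in shCtrl and 130, 128.1 and 131.1 CPM in shGDPD5. The groups then overlapped and the call was lost (log2 fold change 0.05, SE 0.05, edgeR adjusted p = 0.389). How the counting divided reads between these rows is not given in the sources used here, so the value of ANAPC1 alone is uncertain. Named pseudogene rows of CDC20, CDC27, PTTG1, UBE2C and UBE2S amounted to at most 0.395% of the counts of the member.

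**Figure D3:**
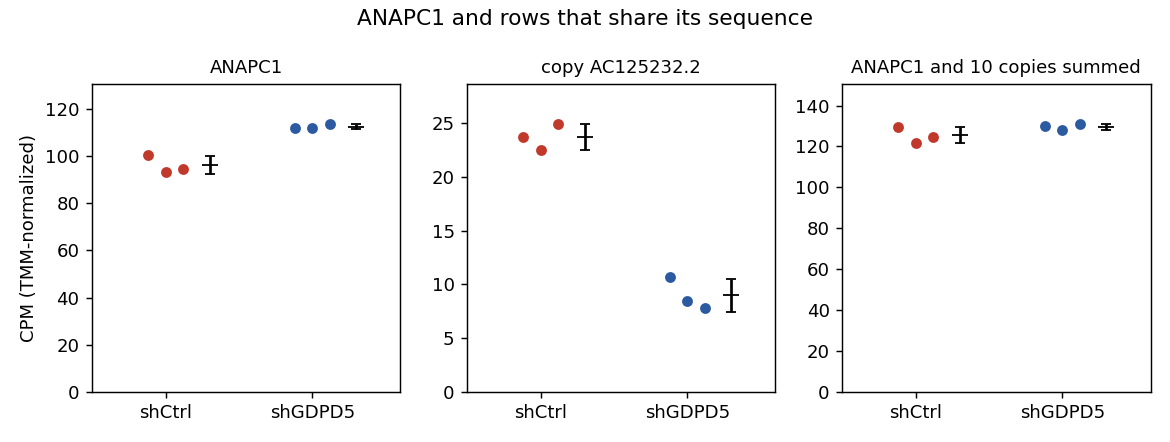
ANAPC1, its copy AC125232.2 and ANAPC1 with all 10 copies summed, in TMM-normalized CPM on linear axes from 0. Points are libraries (red shCtrl, blue shGDPD5) with the mean and SD beside them (n = 3). The mean of ANAPC1 alone goes up from 96.3 to 112.6 CPM, that of AC125232.2 goes down from 23.75 to 8.97 CPM, and the sum is 125.5 ± 3.96 and 129.7 ± 1.51 CPM.

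The other 11 subunits, none of them a member, did not move in 1 direction. By edgeR's quasi-likelihood test 6 rose, 4 fell and CDC26 did not pass (0.11, edgeR adjusted p = 0.193). By the same test 29.7% of all tested genes rose and 30.1% fell. Their median log2 fold change was 0.25. In all 11 the groups of libraries did not overlap in 1 direction or the other, as in 64.9% of all tested genes (32.6% above, 32.4% below).

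The 14 subunits, members included, were then taken by their place in the complex. The 4 platform subunits all rose: ANAPC1 (with the limit above), ANAPC4 by 0.25, ANAPC5 by 0.52 and ANAPC15 by 0.69, the subunit that helps the complex turn over the checkpoint inhibitor. Their summed level went from 243.3 ± 4.51 to 318 ± 1.84 CPM (SD, n = 3), a ratio of 1.31. ANAPC4 no longer passed without shGDPD5 2 (0.19, edgeR adjusted p = 0.0543), and ANAPC15 shares 780 exonic bases with LRTOMT on the opposite strand.

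Of the catalytic and substrate-binding subunits, the cullin ANAPC2 rose by 0.61 and the RING subunit ANAPC11 by 0.29. ANAPC10, which helps bind the destruction box of substrates, was at 19.97, 20.8 and 19.4 CPM in shCtrl and 13.9, 15.9 and 14.04 CPM in shGDPD5. It fell by 0.46 on the log2 scale (SE 0.08, edgeR adjusted p = 0.000442). ANAPC10 shares 469 exonic bases with ABCE1, which had 31751.8 counts over all 6 libraries, and ANAPC11 shares 62 with ALYREF, both on opposite strands. On the same strand ANAPC10 shares 1020 with AC098588.1 (14.3 counts) and ANAPC11 shares 247 with NPB (6.4 counts). The effect of these overlaps on the values was not tested.

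Of the TPR subunit genes CDC27 (with the limit above), ANAPC7 and CDC23 rose and CDC16 fell. CDC16 was at 85.0, 73.0 and 76.2 CPM in shCtrl and 65.9, 68.6 and 67.1 CPM in shGDPD5 (log2 fold change −0.22, SE 0.06, edgeR adjusted p = 0.0089). CDC23 rose by 0.41, and shares 68 exonic bases with the opposite-strand mitotic kinesin gene KIF20A. The summed level of the 4 was 413.8 ± 26.1 CPM in shCtrl and 466.8 ± 5.49 CPM in shGDPD5 (SD, n = 3), a ratio of 1.13.

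Transcripts of the 3 small proteins that brace the TPR lobe showed no rise that passed the test. ANAPC16 was at 126.4, 127.1 and 129.2 CPM in shCtrl and 78.9, 82.6 and 74.6 CPM in shGDPD5, and fell by 0.70 on the log2 scale (SE 0.05, edgeR adjusted p = 1.76e-07). ANAPC13 was at 66.6, 59.0 and 62.2 CPM in shCtrl and 45.2, 46.1 and 45.6 CPM in shGDPD5, and fell by 0.46 (SE 0.06, edgeR adjusted p = 2.49e-05). Both were lower in every knockdown library than in any control library. CDC26, at 23.4 to 26.4 CPM in shCtrl and 26.5 to 27.9 CPM in shGDPD5, was the remaining member of this set. The summed level of the 3 went from 215.6 ± 5.22 to 151.7 ± 4.75 CPM (SD, n = 3), a ratio of 0.704. All of these small genes share exonic bases with an opposite-strand gene: 208 for CDC26 with PRPF4, 306 for ANAPC13 with CEP63 and 139 for ANAPC16 with ASCC1.

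Over the 14 subunits 9 rose, 4 fell and 1 did not pass, where 29.7% of all tested genes rose and 30.1% fell. The 9 include ANAPC1, ANAPC4 and CDC27, whose calls were lost under the alternatives given above. The summed level of the 14 changed by a ratio of 1.08, from 949.2 ± 31.8 to 1027 ± 8.82 CPM (SD, n = 3). Subunit transcripts therefore did not rise as a block, and the fold in the means ran from 0.617 for ANAPC16 to 1.61 for ANAPC15.

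**Figure D4:**
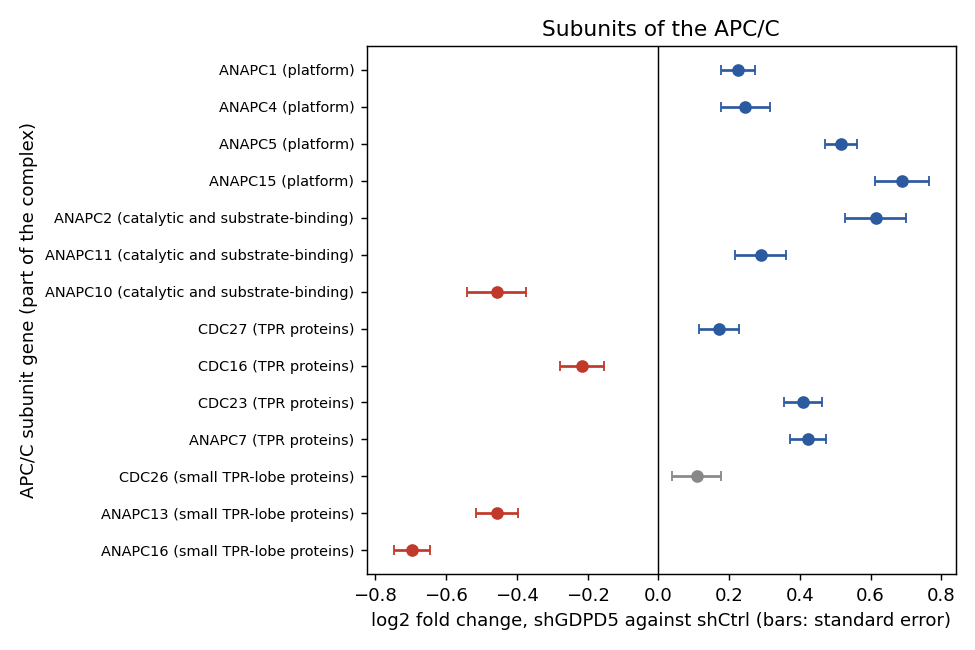
Log2 fold change (shGDPD5 against shCtrl, edgeR) of the 14 APC/C subunits, ordered by their place in the complex, with bars of 1 SE. Blue points rose, red fell and grey did not pass the test. The platform subunits lie between 0.23 and 0.69, while ANAPC13 and ANAPC16 of the small TPR-lobe proteins lie at −0.46 and −0.70.

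The securin-separase pair held the largest change among the members. PTTG1 (ENSG00000164611, chr5:160421822-160428744, plus strand), which encodes securin, was at 51.5, 49.0 and 51.4 CPM in shCtrl and 93.7, 101.8 and 95.0 CPM in shGDPD5. Every knockdown library stood well above the controls. The change was 0.94 (SE 0.05, edgeR adjusted p = 2.12e-08).

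ESPL1 (ENSG00000135476, chr12:53268299-53293643, plus strand), which encodes separase, was at 17.2, 18 and 18.1 CPM in shCtrl and 61.1, 63.1 and 60.2 CPM in shGDPD5. Each group was tight, and relative to its level the gap between them was wider than for any other member. The change was 1.79 (SE 0.06, edgeR adjusted p = 1.80e-10), or 3.46-fold in the means, on 295 to 1183 counts per library. Its log2 fold change stood at percentile 99.1 of all tested genes, against 93.7 for PTTG1 and 94.1 for CDC20.

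Within each library, the log2 ratio of PTTG1 to ESPL1 went from 1.58, 1.44 and 1.51 in shCtrl to 0.62, 0.69 and 0.66 in shGDPD5. The ratio was lower in all 3 knockdown libraries, by 0.85 on average, and the groups did not overlap. The exact two-sided permutation test over libraries gave p = 0.1, the smallest that this design allows. Per kilobase of exon, PTTG1 was 12.6 ± 0.609 times ESPL1 in shCtrl and 6.96 ± 0.172 times in shGDPD5 (SD, n = 3), and by the length of the longest coding transcript 17.7 and 9.75 times. Transcripts of securin thus exceeded those of separase in both groups.

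Per kilobase of exon, the most abundant members in shCtrl were UBE2S at 37.8 ± 4.33, CDC20 at 34.8 ± 2.29, CDC27 at 34.2 ± 2.83 and UBE2C at 32.6 ± 1.21 CPM per kilobase (SD, n = 3). Neighbours in that order differed by less than their spread. PTTG1 followed at 25.2, then ANAPC7 at 10.3, ANAPC1 at 6.88, FBXO5 at 5.24, FZR1 at 4.06 and ESPL1 at 2.00 CPM per kilobase. In shGDPD5 CDC20 came first at 67.9 ± 1.83, ahead of UBE2C at 57.8, UBE2S at 53.9 and PTTG1 at 48.1 CPM per kilobase, and FZR1 came last at 5.59, below ESPL1 at 6.91. UBE2C and UBE2S did not differ beyond their spread there. By the length of the longest coding transcript PTTG1 came first in both groups, so the order of the upper members depends on the length used, while FZR1 and ESPL1 held the last places by either length.

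Transcripts of spindle checkpoint regulators of CDC20, which restrain it or lift that restraint, were read next to its own. Of 12 genes 9 rose, 0 fell and 3 did not pass the edgeR test, with a median log2 fold change of 0.81. Among all tested genes 29.7% rose and 30.1% fell. BUB1B and MAD2L1, which bind CDC20 in the mitotic checkpoint complex, rose by 1.38 (SE 0.05, edgeR adjusted p = 3.02e-10) and 1.30 (SE 0.05, edgeR adjusted p = 8.53e-10). MAD2L1 was at 53.6 to 58.1 CPM in shCtrl and 132 to 137.6 CPM in shGDPD5, without overlap. KNTC1 and ZWILCH of the RZZ complex rose by 1.43 and 0.75, the kinase BUB1 by 0.86 and TRIP13, which takes the inhibitor apart, by 1.38. MAD1L1 (−0.04), MAD2L1BP (−0.01) and CUEDC2 (0.15) did not pass.

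Transcripts of known APC/C substrates in the cell cycle all rose: 32 of 32, where 29.7% of all tested genes did. The median log2 fold change was 1.10, with a range from 0.17 (CDC6) to 2.19 (TK1). The list was chosen with earlier results of these data known. With a log2 change of at least 1 and an unadjusted p under 0.05, 17 rose, against 5.38% of all tested genes. With a fold over 1.5, 28 rose, against 13.6% of all tested genes. With the smallest p were TK1 (thymidine kinase, 2.19), RRM2 (ribonucleotide reductase, 1.57), PRC1 (spindle midzone, 1.31), SKP2 (an F-box protein, 1.53), KIF11 (a spindle motor, 1.44) and UHRF1 (1.21). Their summed level ran from 1607 to 1654 CPM in shCtrl and from 3260 to 3298 CPM in shGDPD5. Many of these genes are transcribed in S, G2 or M phase themselves, and the part of the listed substrates in the rise of the members was not tested.

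Substrates of the complex outside the cell cycle were mixed. The homeobox gene HOXC10 rose by 0.52 (SE 0.19, edgeR adjusted p = 0.0307), on only 29 to 52 counts per library. SKIL fell by 0.83 and ETS2 fell by 0.71 on the log2 scale, and PFKFB3 did not pass (0.05, edgeR adjusted p = 0.496). SKIL was at 55.6 to 67.4 CPM in shCtrl and 32.7 to 34.0 CPM in shGDPD5, without overlap.

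Cohesin, the target of separase, and its regulators rose in 9 of 12 genes, with 1 lower and 2 not passing and a median of 0.34. The shares over all tested genes were 29.7% rising and 30.1% falling. The acetyltransferase ESCO2 rose by 1.80 and sororin (CDCA5) by 1.81, beside 1.79 for ESPL1. The core subunits SMC1A, RAD21 (the kleisin that separase cleaves) and SMC3 rose by 0.82, 0.38 and 0.26. Among the 6 with the smallest adjusted p were also PDS5B (0.34) and SGO1 (0.48), which protects centromeric cohesin. WAPL, which releases cohesin from chromatin, fell by 0.22 on the log2 scale (SE 0.06, edgeR adjusted p = 0.00619), and STAG2 (−0.13) and PDS5A (−0.04) did not pass. BUB1 and CDCA5 each stand in more than 1 of these lists.

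**Figure D5:**
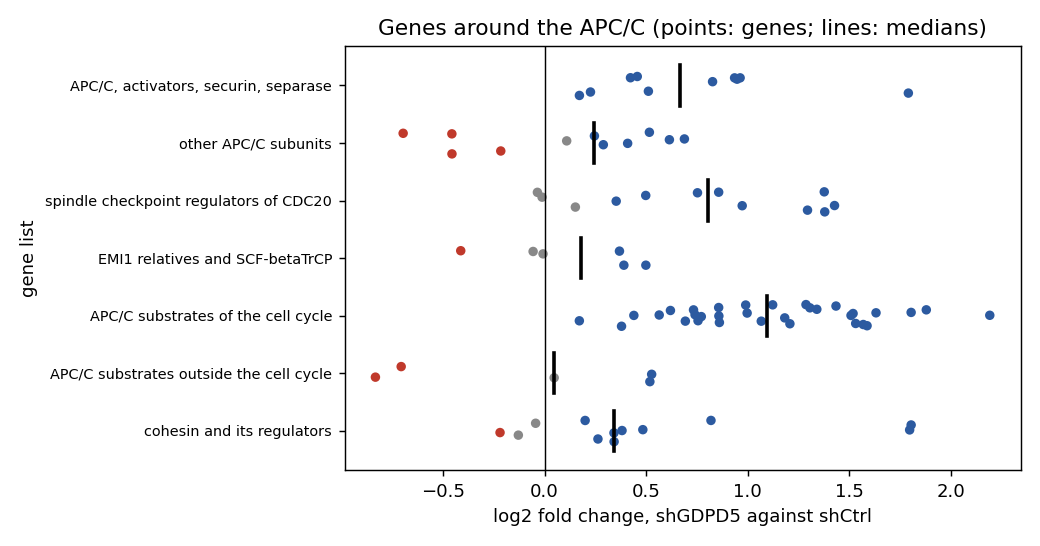
Log2 fold change (shGDPD5 against shCtrl, edgeR) of every tested gene in 7 lists, 1 point per gene, with the list median as a black line. Blue points rose, red fell and grey did not pass the test. The median is 0.67 for the members (top row), 0.25 for the other subunits, 0.81 for the checkpoint genes, 1.10 for cell cycle substrates and 0.34 for cohesin genes.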

How the data were processed

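RNA-seq libraries were made by the submitters from total RNA of HCT116 cells with a SMARTER mRNA-Seq kit, and sequencing and primary analysis were done by a company. A single table deposited by the authors gives unnormalized estimated counts by Ensembl identifier for each library. Aligner, counter, genome build and strand setting were not given in the sources used here. Counts were rounded before testing, moving a value by at most 0.5, and library totals ran from 16715447 to 18510670. The study states a per-gene t test with fold thresholds for its own calls, and since the deposited values are counts a count model was used in its place.

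Genes with enough counts by edgeR's filterByExpr (minimum count 10) were kept, 16755 of 79302. Counts were scaled by TMM and tested with edgeR 4.0.16 (R 4.3.3), glmQLFit and glmQLFTest, shGDPD5 against shCtrl with 3 libraries each, and p-values were adjusted by Benjamini-Hochberg over all tested genes with a threshold of 0.05. The common biological coefficient of variation was 0.0555. CPM were computed from TMM-scaled library sizes, and ratios within a library used a prior count of 2. Alternatives were the size factors and Wald test of DESeq2 1.42.0, upper quartile factors, limma-voom (limma 3.58.1), other filters, each library left out, a replicate block, pseudogene rows added and the size cuts of the study, with the effect of each given in the closing section. The test was checked on simulated counts with log2 changes of 1 or 2 in either direction, where 16283 of 16477 genes were unchanged. It recovered 48 of 50 genes at 1 and 42 of 47 at −1, and called 9 unchanged genes. Smaller changes, and a share of changed genes as wide as in these data, were not simulated.

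Genes were named by a rule: all members, all other subunits, GDPD5, and of each other list up to 6 genes with the smallest adjusted p under 0.05, up to 3 called in the opposite direction, and any not tested. A gene covered by this rule is not reported here. Further genes that missed the threshold, CDC6, SMC3 and the ANAPC1 copies were named after their values were seen. The members and lists were chosen with earlier results of these data known, and the grouping of subunits by place in the complex follows textbook structure and was added later. Gene positions are those of GENCODE release 29 (GRCh38), matched by identifier, and promoters those of RefSeq (GRCh38.p14). Shared sequence was counted as runs of 50 bases common to annotated transcripts. Depth sets the precision: member counts per library ran from 295 (ESPL1) to 4968 (CDC27).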

Additional observations from a re-analysis of the deposited data

How the results depend on the processing

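Of 136 member values recomputed under the alternatives, 131 kept their direction and their side of the threshold, and none reversed. ESPL1 ranged from 1.76 to 1.81, CDC20 from 0.91 to 1.00, FBXO5 from 0.91 to 0.99, PTTG1 from 0.89 to 0.96, UBE2C from 0.80 to 0.85, UBE2S from 0.42 to 0.59, FZR1 from 0.34 to 0.55 and ANAPC7 from 0.40 to 0.44 (log2 fold change). The exceptions were CDC27 and ANAPC1. CDC27 ranged from 0.11 to 0.23 on leaving out a library and lost its call on leaving out any of 4 of the 6. ANAPC1 lost its call with the rows that share its sequence added (0.048, edgeR adjusted p = 0.389, chosen after seeing the data). That value counts the reads of those rows with the gene. The cause of the CDC27 losses beyond the smaller number of libraries was not tested. Of the size cuts named in the study's methods, with an unadjusted p under 0.05, a log2 change of at least 1 left 1 member, 0 other subunits, 17 cell cycle substrates and 2007 genes in all, against 10, 10, 32 and 10006, and a fold over 1.5 or under 0.5 (added after seeing the data) left 5, 2, 28 and 3378. All other alternatives kept these counts within 1.5 times, with 9 to 10 members called on leaving out a library and 8711 (DESeq2) to 10536 (no filter on low counts) genes in all. The CDC20 to FZR1 difference ranged from 0.42 to 0.57 and the PTTG1 to ESPL1 difference from −0.89 to −0.82. Same-numbered libraries did not deviate together (correlations of −0.07, −0.05 and −0.04), which gave no sign of pairing but cannot exclude it. A fit with the replicate block called 10 members, 10 other subunits, 32 substrates and 9645 genes. Small changes are limited by 3 libraries a group, and rows that share sequence or overlap on opposite strands by the unknown handling of such reads.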
